A study of Mus musculus with 40 samples.

Results

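The comparison described here set the dorsal hippocampus of old HDAC3flox/flox mice against that of old wildtype mice, both taken straight from the homecage without training. It used the 8 libraries of the HDAC3flox/flox homecage group (H3F-HC) and the 6 of the old wildtype homecage group (OWT-HC), 14 of the 40 libraries of the series, with 1 library per mouse. Genes entered when their mean over these 14 libraries was at least 0.5 RPKM (reads of a gene scaled for its exon length and for how many reads its library mapped), which kept 14321 of 20953 genes. All mice were 18 to 20 months old. Their labels give the strain as C57BL/6J, while the study's methods describe the HDAC3 line only as kept on C57BL/6. The HDAC3flox/flox mice carry loxP sites in Hdac3, and per the study's methods both genotypes received an infusion of AAV-CaMKII-Cre into the dorsal hippocampus 2 weeks earlier, so that the wildtype controls carry the virus and the recombinase too. CaMKII directs Cre to excitatory neurons, and glia, vessels and most interneurons in the same tissue are not its targets. The tissue was sequenced in bulk, and fewer cells of a type and less RNA per cell cannot be told apart.

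HDAC3 is a class I histone deacetylase. It works as the catalytic subunit of a complex with corepressor proteins, which nuclear receptors and other DNA-bound factors bring to their target genes, and removal of acetyl groups from histones at those genes goes with lower transcription. In the hippocampus HDAC3 is known as a negative regulator of long-term memory formation. The question of this comparison is which transcripts differ at rest, before any learning, after Cre was directed to Hdac3 in excitatory neurons of the old dorsal hippocampus.

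The groups had like median depths over libraries that varied in depth. Estimated from the steps between their lowest values, they held 12.7 to 31.6 M reads in OWT-HC and 18.6 to 38.8 M in H3F-HC, with a median of 23.6 M in both. The lowest estimate, that of OWT-HC-107A, could not be checked against counts, and this library had the fewest genes above 0 of the 14, 17345. A few libraries stood apart from the rest. The median correlation of H3F-HC-121B with the other libraries was 0.927, against 0.940 or more in the other 7 H3F-HC mice, and the genes with the shortest 10% of transcripts lay 0.64 above the median library on the log2 scale, while those with the longest 10% stood at -0.81 against it. OWT-HC-110A, with a median correlation of 0.907, was low in immune transcripts: the summed level of its interferon-stimulated genes stood at 92.7 RPKM against 1598 to 3771 in the other 5 wildtype mice. H3F-HC-112B was the lowest of its group for this sum, at 552 RPKM. The median gene had a between-mouse SD of 0.17 (log2) in OWT-HC and 0.27 in H3F-HC, or 0.17 in H3F-HC without H3F-HC-121B. Xist, the noncoding RNA of the inactive X chromosome, was above 1 RPKM in 5 of 8 H3F-HC libraries and in 2 of 6 OWT-HC libraries, so the sexes were not balanced between the groups. Markers of the hippocampus were present in both groups, with the summed level of the 14 measured CA3 and CA2 markers at 195 to 337 RPKM in OWT-HC and 146 to 378 in H3F-HC. Other subfields were less even. Dentate granule cell markers summed to 51.9 RPKM in H3F-HC-121B, against 294 to 526 in OWT-HC. CA1 markers summed to 79.4 RPKM in H3F-HC-105B, against 180 to 373 in OWT-HC.

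Hdac3 was lower in every H3F-HC library than in any OWT-HC library. The OWT-HC mice ran from 27.6 to 32.7 RPKM with a median of 30.0, and the H3F-HC mice from 13.1 (H3F-HC-101B) to 18.0 (H3F-HC-112B) with a median of 16.5. The groups were about equally tight and the gap between them was wider than either group. The mean of H3F-HC was 54.0% of that of OWT-HC, a log2 difference of -0.87 with a standard error of 0.07 (adjusted p = 8.08e-05 from limma). An exact two-sided permutation test over the 14 libraries gave p = 0.000666, the smallest it allows. Hdac3 kept its call in each of the 14 fits that left out 1 library, with log2 differences between -0.90 and -0.83. RPKM counts reads over all exons of a gene, so any transcript made from the recombined allele counts toward these levels. In the trained mice of the same genotypes the difference was -0.74 (standard error 0.14), with HDAC3flox/flox mice spread from 11.6 to 24.2 RPKM and wildtype mice from 28.1 to 33.1. The homecage difference minus the trained one was -0.13 (standard error 0.16, unadjusted p = 0.415 from limma), so no change of the deletion's size with training was resolved.

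**Figure D1:**
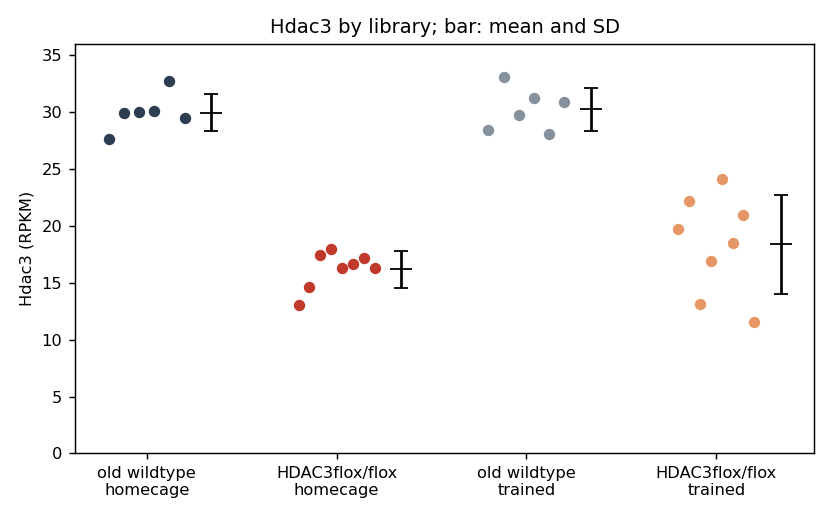
Hdac3 in RPKM (y axis) for each library of the 4 groups of old mice, 1 point per mouse, with the mean and SD beside each group. The 8 homecage HDAC3flox/flox mice sit between 13.1 and 18.0 RPKM, below all 6 homecage wildtype mice, and the trained HDAC3flox/flox mice spread more widely.

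The genes beside Hdac3 on the chromosome did not pass the test. Hdac3 is transcribed from the reverse strand at chr18:37935844-37955016 (mm10), and of the 10 measured genes to each side of it none was called. Their log2 differences ran from -0.37 (Pcdhga12) to 0.09 (Arap3), and 15 of the 20 were negative, beside 54.7% of all genes tested. Rell2, a membrane protein related to the TNF receptor RELT, whose gene starts 0.063 kb from Hdac3, had a log2 difference of 0.01. Diaph1, a formin that assembles actin filaments 0.368 kb away on the other side, had -0.23 (unadjusted p = 0.0451, adjusted p = 0.399 from limma). The other neighbours on the side of Diaph1 were clustered protocadherins, the adhesion proteins by which neurons tell their own neurites from those of others. All of these were negative and are part of the count of 15, while the remaining neighbours held both signs. Over the whole protocadherin clusters, 51 of the 52 measured members had negative log2 differences, with a median of -0.25, and none was called. Without H3F-HC-121B that median was -0.12. Their mean level in H3F-HC-121B was 0.63 on the log2 scale against 1.54 to 1.801 in the other H3F-HC mice. Genes of the alpha cluster share their last exons with each other, as do those of the gamma cluster, so their values are not independent.

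Members of the HDAC3 complex other than Hdac3 itself were not called. Ncor1, a scaffold of the complex, ran from 24.2 to 26.95 RPKM with a median of 25.9 in OWT-HC and from 11.2 to 25.3 with a median of 23.9 in H3F-HC. The lowest value belonged to H3F-HC-121B, and the ranges overlapped. The log2 difference of Ncor1 was -0.23 (adjusted p = 0.535 from limma), or -0.10 without that library. Tbl1x stood at -0.06, Tbl1xr1 at 0.12 and Gps2 at 0.01, and these genes encode further core subunits of the complex. Kdm4a, a histone demethylase, had -0.24, and Coro2a, an actin-binding protein of the complex, -0.25. Nr1d1 (REV-ERB alpha), a clock repressor that recruits the complex, had 0.22 with an unadjusted p of 0.0287 (adjusted p = 0.363 from limma), and its relative Nr1d2 had 0.03. Zbtb33, the methyl-DNA binding factor Kaiso, had -0.16. The median of the 10 members other than Hdac3 was -0.08, or -0.04 without H3F-HC-121B, against -0.02 over all genes tested.

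Besides Hdac3, 17 genes were lower in H3F-HC and none was higher, when a call required both an unadjusted p under 0.05 and, after the Benjamini-Hochberg adjustment in limma, a value under 0.15. The 18 lower genes make up 0.126% of the genes tested, and the share called higher is 0%. Without the adjustment, 1268 genes (8.85%) were lower and 512 (3.58%) higher at p under 0.05. Whatever their p, 54.7% of all genes tested had negative log2 differences, the share that any sign count of a list stands beside. The log2 differences of the 18 ran from -1.09 to -0.24 with a median of -0.49, and in 14 of them the 2 groups did not overlap. The 18 were chosen by p in these same libraries, which favours genes without overlap, so that count is no separate support. Groups did not overlap downward in 0.873% of all genes tested and upward in 0.0559% (8 genes).

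How many genes were called depended strongly on single libraries and on scaling. Without H3F-HC-121B, limma called 501 lower (3.5%) and 55 higher (0.384%), and all 18 genes kept their call. Without H3F-HC-112B it called 195 lower and 9 higher, and without H3F-HC-101B 21 lower and 2 higher. Leaving out H3F-HC-105B, H3F-HC-111B, H3F-HC-115B or H3F-HC-124B gave 5 lower genes each. The count was 6 without H3F-HC-117B, OWT-HC-107A or OWT-HC-129A, 4 without OWT-HC-131A and 3 without OWT-HC-126A. Without OWT-HC-110A or OWT-HC-114A, as well as after median-ratio scaling or quantile normalization, Hdac3 was the single gene called. All 18 log2 differences stayed negative in each of these fits. In the median-ratio fit the adjusted p of the other 17 ran from 0.185 to 0.33.

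**Figure D2:**
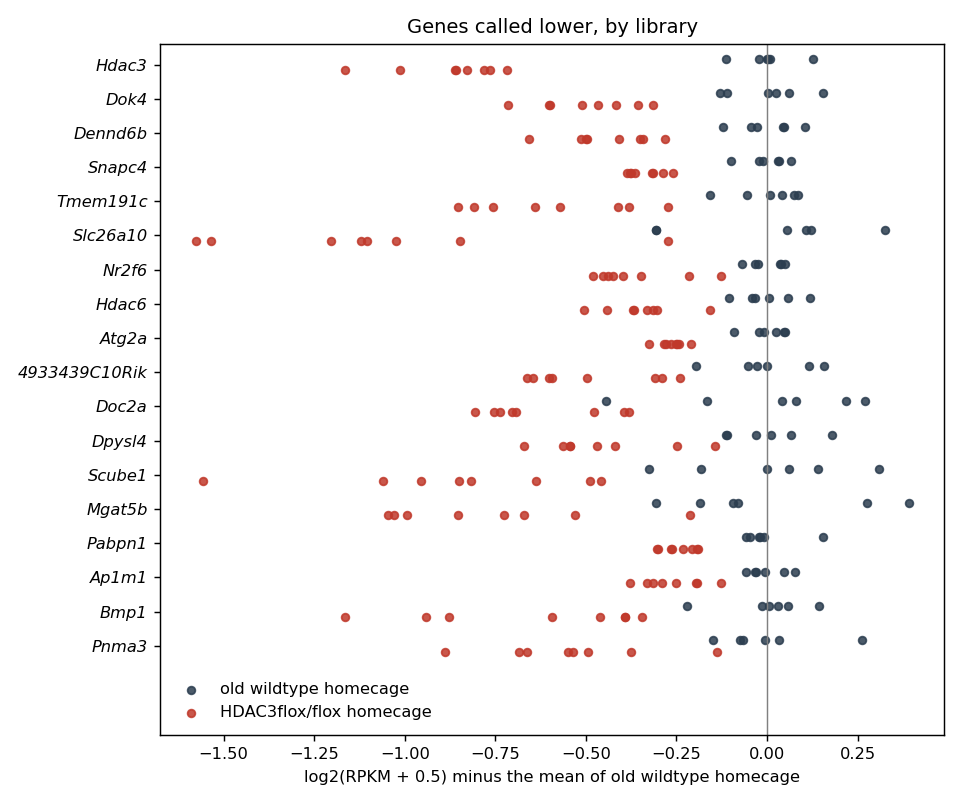
Level of the 18 called genes in each homecage library, as log2(RPKM + 0.5) minus the mean of old wildtype homecage mice (x axis), 1 point per mouse, genes ordered by p. In 14 of the 18 genes, which were called from these same libraries, every HDAC3flox/flox point lies to the left of every wildtype point.

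The called genes are given by what their products are known to do, a grouping made for description and not tested. Those of signalling and membrane traffic were Dok4, Dennd6b, Ap1m1, Atg2a and Doc2a. Dok4, an adaptor protein that receptor tyrosine kinases phosphorylate, ran from 6.58 to 8.12 RPKM in OWT-HC (median 7.32) and from 4.22 to 5.73 in H3F-HC (median 5.03). These ranges did not overlap, and the log2 difference was -0.50 (standard error 0.08, adjusted p = 0.0486 from limma). Dennd6b, an exchange factor for Rab GTPases, ran from 7.69 to 9.07 in OWT-HC (median 8.46) and from 5.15 to 6.84 in H3F-HC (median 6.01), again without overlap, a log2 difference of -0.44 (standard error 0.07, adjusted p = 0.0486). Ap1m1, a subunit of the clathrin adaptor of the trans-Golgi network, was tighter still within each group. It ran from 28.7 to 31.5 RPKM in OWT-HC and from 22.9 to 27.3 in H3F-HC, a log2 difference of -0.26 (adjusted p = 0.145). Atg2a, a lipid transfer protein of the growing autophagosome, ran from 7.90 to 8.76 in OWT-HC and from 6.65 to 7.24 in H3F-HC, also -0.26 on the log2 scale (adjusted p = 0.123). Doc2a, a calcium sensor for vesicle release at nerve terminals, was the one of these 5 with overlapping groups: OWT-HC-107A stood at 4.91 RPKM, within the H3F-HC range of 3.71 to 5.15, while the OWT-HC median was 7.17. Its log2 difference was -0.62 (adjusted p = 0.126).

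Called genes with a role in RNA or transcription were Snapc4, Nr2f6 and Pabpn1. Snapc4, a subunit of the complex that starts transcription of small nuclear RNA genes, ran from 6.52 to 7.37 RPKM in OWT-HC (median 7.07) and from 5.25 to 5.78 in H3F-HC (median 5.44). No H3F-HC mouse came near the wildtype range, and the log2 difference was -0.34 (standard error 0.05, adjusted p = 0.0486 from limma). Nr2f6, an orphan nuclear receptor of the COUP-TF family, ran from 12.9 to 14.1 in OWT-HC and from 9.58 to 12.4 in H3F-HC, where H3F-HC-121B was the highest. Its log2 difference was -0.36 (adjusted p = 0.115), and -0.39 (adjusted p = 0.00894) without that library. Pabpn1, the nuclear protein that binds poly(A) tails, was the most abundant of the 18 genes, at 52.1 to 60.4 RPKM in OWT-HC and 43.9 to 47.5 in H3F-HC. Its log2 difference of -0.24 (adjusted p = 0.145) was the smallest of the 18.

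Hdac6 was the one other zinc-dependent deacetylase called. It encodes a mainly cytoplasmic enzyme that acts on tubulin, and its gene is on the X chromosome. Levels ran from 7.64 to 9.01 RPKM in OWT-HC (median 8.18) and from 5.67 to 7.35 in H3F-HC (median 6.38). The groups did not overlap, and the log2 difference was -0.35 (standard error 0.06, adjusted p = 0.123 from limma). With the Xist level of each library as a covariate, Hdac6 and the other 17 genes all kept their call, and limma then called 48 genes lower and 3 higher. Xist was at 4.46 RPKM in H3F-HC-121B, against 18.0 to 33.2 in the other libraries above 1 RPKM, so this covariate does not follow sex alone. Of the 10 zinc-dependent deacetylases other than Hdac3, 6 had negative log2 differences, with a median of -0.12, or -0.06 without H3F-HC-121B. Hdac4, a class IIa enzyme that binds the HDAC3 complex, had 0.20 (unadjusted p = 0.0315, adjusted p = 0.372), and Hdac2, the class I enzyme most often studied beside HDAC3 in memory, had -0.14 (adjusted p = 0.419).

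Slc26a10, Scube1, Mgat5b and Bmp1 encode a transporter family member, a secreted protein, a glycan enzyme and a protease. Slc26a10, of the SLC26 anion exchanger family, had the largest log2 difference of the 18 genes, -1.09 (standard error 0.18, adjusted p = 0.0723 from limma). It ran from 5.74 to 9.18 RPKM in OWT-HC (median 7.67) and from 2.09 to 5.89 in H3F-HC (median 3.07). The overlap came from H3F-HC-112B, which lay above the lowest wildtype mouse. Scube1, a cell surface and secreted glycoprotein with EGF-like repeats, ran from 1.51 to 2.63 in OWT-HC (median 2.08) and from 0.358 to 1.34 in H3F-HC (median 0.918), without overlap. Its log2 difference was -0.85 (standard error 0.16, adjusted p = 0.126). Mgat5b, a brain enzyme that branches the glycans of O-mannosylated proteins, had -0.76 (adjusted p = 0.126), with 9.15 to 15.2 RPKM in OWT-HC and 5.28 to 9.80 in H3F-HC. Bmp1, the protease that trims procollagens, had -0.65 (adjusted p = 0.145) and no overlap, with 13.2 to 17.1 RPKM against 6.60 to 12.03.

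The remaining called genes were Tmem191c, Dpysl4, Pnma3 and 4933439C10Rik. Tmem191c ran from 26.1 to 31.0 RPKM in OWT-HC and from 15.9 to 24.0 in H3F-HC, a log2 difference of -0.59 (standard error 0.09, adjusted p = 0.0562 from limma). Dpysl4, of the collapsin response mediator family that acts on the cytoskeleton of growing axons, had -0.45 (adjusted p = 0.126). Pnma3, an X-linked gene of the paraneoplastic antigen family, had -0.54 (adjusted p = 0.145), and 4933439C10Rik had -0.48 (adjusted p = 0.126). Of these 4 genes Pnma3 alone had overlapping groups.

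The called genes were rich in G and C. Their longest annotated transcripts had a median GC content of 56.5%, against 49.9% over the tested genes with a transcript, and 12 of the 18 were among the 20% of genes with the highest GC content. In that GC-rich bin 0.432% of 2778 genes were called lower, and in the bin of the 20% with the lowest GC content none. The median log2 difference was 0.00 in the GC-rich bin and -0.05 in the GC-poor one. By transcript length, the 10% of genes with the shortest transcripts had a median log2 difference of 0.10 and the 10% with the longest -0.15. The part of GC content and length in the calls was not tested.

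Promoters of called genes, from 250 bases before to 50 after the start site, were read from RefSeq (GRCm38.p6, the build of the files), which held 12 of the 18. They covered the whole range from a dense CpG island to almost no CpG, with a median of 22.5 CpG pairs against 20 over the promoters of all genes tested. The 2 extremes are shown in full, with every CpG pair in capitals: Nr2f6, at chr8:71381903-71382202 on the reverse strand, with 53 pairs, and Slc26a10, the gene with the largest difference, at chr10:127180533-127180832 on the reverse strand, with 4.
Nr2f6: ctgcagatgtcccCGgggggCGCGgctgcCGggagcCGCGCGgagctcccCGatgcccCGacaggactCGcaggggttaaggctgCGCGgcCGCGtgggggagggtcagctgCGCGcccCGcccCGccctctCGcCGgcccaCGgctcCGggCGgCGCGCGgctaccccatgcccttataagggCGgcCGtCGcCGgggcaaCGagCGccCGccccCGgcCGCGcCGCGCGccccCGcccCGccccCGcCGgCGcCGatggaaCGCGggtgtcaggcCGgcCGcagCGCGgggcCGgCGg
Slc26a10: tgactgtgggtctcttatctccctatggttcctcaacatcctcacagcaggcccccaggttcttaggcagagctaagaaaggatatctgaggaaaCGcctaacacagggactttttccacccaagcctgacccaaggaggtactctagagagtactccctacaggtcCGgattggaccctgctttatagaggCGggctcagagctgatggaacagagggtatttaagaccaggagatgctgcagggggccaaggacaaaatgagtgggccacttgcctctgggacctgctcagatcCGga
The motif AGGTCA, the half-site of many nuclear receptors, was found on either strand in 1 of the 12 promoters (8.33%, Tmem191c), against 12.3% of all promoters of tested genes. The motif GGGCGG, the GC box of SP and KLF factors, was in 8 of the 12 (66.7%) against 60.8%. The E-box CACGTG and the CRE motif TGACGTCA were in none of the 12, against 9.61% and 2.93%. These are matches of letters in a window and say nothing of binding.

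No gene was called higher. The genes with the smallest p among those with positive differences were Lect1, Aig1, Cetn4 and Lrrc27, all at an adjusted p of 0.160 in limma. Lect1, which encodes the angiogenesis inhibitor chondromodulin, ran from 0.672 to 1.13 RPKM in OWT-HC (median 0.877) and from 0.934 to 3.03 in H3F-HC (median 1.94), a log2 difference of 0.75. Aig1, a membrane hydrolase of fatty acid esters, ran from 15.7 to 17.9 in OWT-HC and from 18.0 to 23.3 in H3F-HC, and Cetn4, a centrin of cilia and centrioles, from 1.79 to 2.45 and from 2.63 to 3.65. In Aig1 and Cetn4 the groups did not overlap, with log2 differences of 0.30 and 0.45. Without H3F-HC-121B all 4 were called, at adjusted p values from 0.0634 to 0.0711.

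In trained mice the called genes mostly had smaller differences. Of the 18, 14 were negative in trained HDAC3flox/flox against trained wildtype mice, Hdac3 among them. Over all genes tested, 59.7% were negative between the trained groups. Among the 18, 5 genes including Hdac3 had an unadjusted p under 0.05, and 1, Hdac3, was called. Limma called 31 genes lower (0.216%) and 2 higher (0.014%) between the trained groups. Scube1 was nearly the same size in both pairs of groups, at -0.83 (standard error 0.19) in trained mice and -0.85 in homecage mice. Dok4 stood at -0.25, Nr2f6 at -0.22 and Hdac6 at -0.18 in trained mice, each with an unadjusted p under 0.05. Slc26a10 stood at -0.15 (standard error 0.30), while Dennd6b, Dpysl4, Bmp1 and Pabpn1 stood at 0.13, 0.04, 0.04 and 0.03. Tested as the difference between the homecage and trained effects, no gene passed the adjustment (smallest adjusted p = 0.999 from limma, with 590 genes, 4.12%, at an unadjusted p under 0.05). Among the 18 genes 10 had an unadjusted p under 0.05 for that difference, and they had been chosen for their homecage values.

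**Figure D3:**
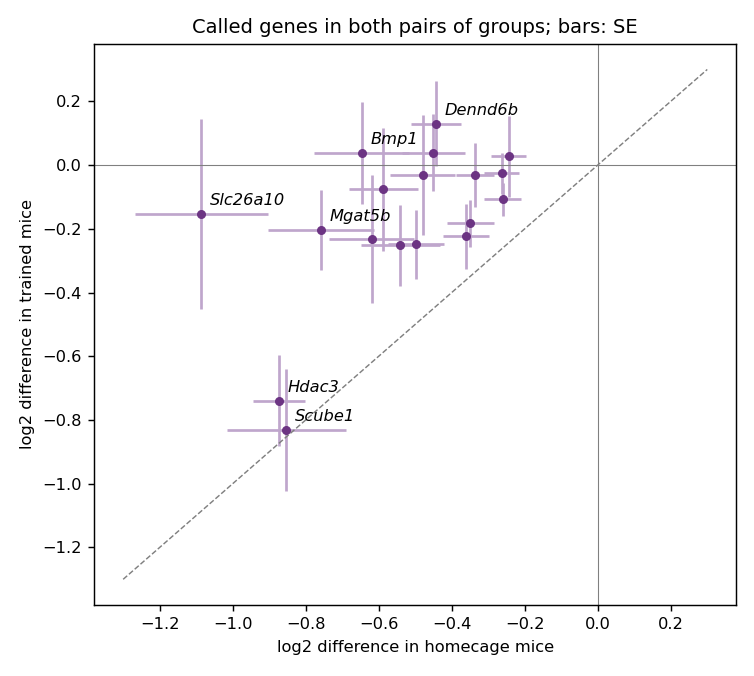
Log2 difference between HDAC3flox/flox and old wildtype mice for the 18 called genes in the homecage (x axis) and after training (y axis), with standard errors, and a dashed line where both are equal. Hdac3 and Scube1 lie near the line at about -0.8, and the others lie between -0.25 (Pnma3) and 0.13 (Dennd6b) on the trained axis.

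Myelin genes had positive log2 differences throughout the list, and none was called. All 20 genes of mature oligodendrocytes and myelin were positive, 18 of them at an unadjusted p under 0.05, with a median of 0.60 against -0.02 over all genes. Of all genes tested 3.58% were higher at that p, and 54.7% had negative differences. Mbp, a main structural protein of compact myelin, ran from 407 to 755 RPKM in OWT-HC (median 585) and from 631 to 1415 in H3F-HC (median 836). The ranges overlapped, and the log2 difference of Mbp was 0.66 (standard error 0.22, adjusted p = 0.303 from limma). Aspa, which breaks down N-acetylaspartate in oligodendrocytes, had 0.65 (adjusted p = 0.291) and Opalin, a glycoprotein of myelin sheaths, 0.94 (adjusted p = 0.314). The summed level of the list was 1520 to 2710 RPKM in OWT-HC and 2034 to 4471 in H3F-HC. Its median was 0.51 without H3F-HC-121B and -0.04 in the trained groups. Markers of oligodendrocyte precursors had a median of 0.15.

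Markers of dentate granule cells had negative differences throughout, and again none was called. All 16 were negative, 8 at an unadjusted p under 0.05, with a median of -0.80, or -0.57 without H3F-HC-121B. Over all genes tested 54.7% were negative, and 8.85% were lower at that p. Prox1, the transcription factor that fixes granule cell identity, ran from 16.4 to 27.1 RPKM in OWT-HC (median 23.6) and from 0.883 to 25.0 in H3F-HC (median 14.9). The lowest value was that of H3F-HC-121B and the highest of H3F-HC that of H3F-HC-112B. Tdo2, tryptophan dioxygenase, had the smallest p of the list, with a log2 difference of -1.08 (standard error 0.30, adjusted p = 0.254 from limma). The summed level of the list was 294 to 526 RPKM in OWT-HC and 51.9 to 499 in H3F-HC. In the trained groups its median was -0.03. Markers of CA1 pyramidal cells had a median of -0.19 with 12 of 13 negative, which turned to 0.07 without H3F-HC-105B, the mouse with the lowest level of these markers. Those of CA3 and CA2 had a median of -0.02, or 0.10 without H3F-HC-101B.

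**Figure D4:**
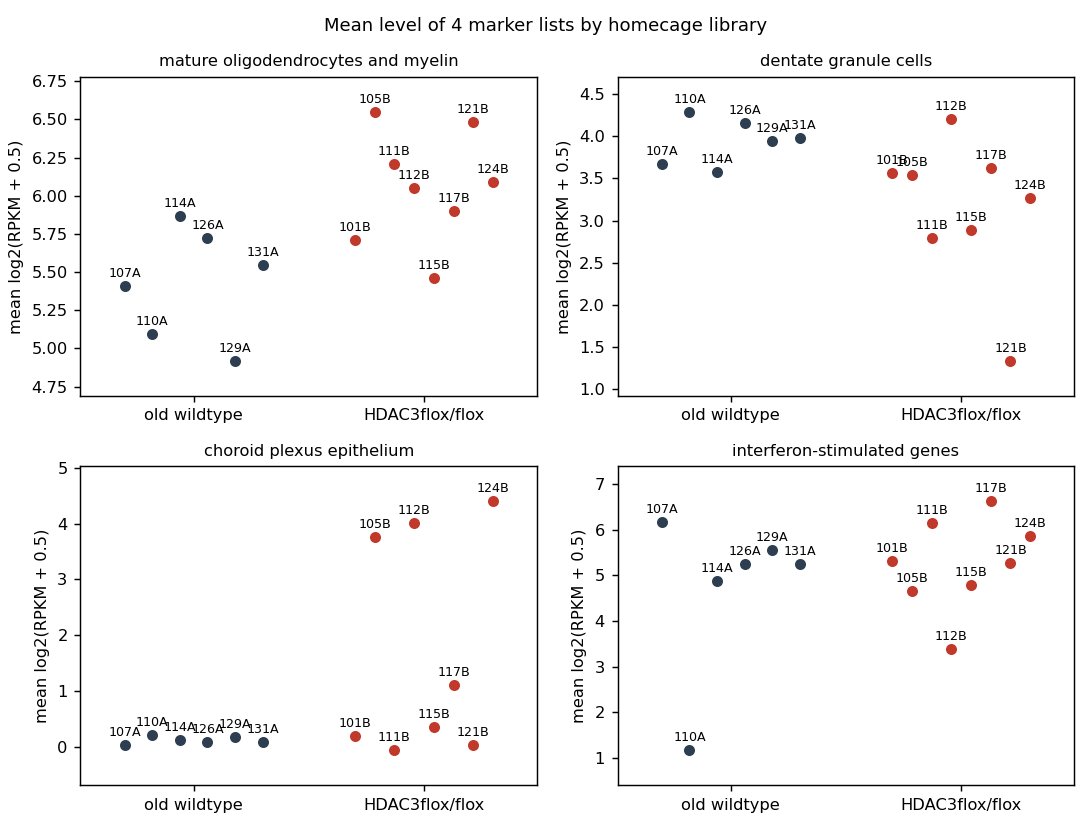
Mean log2(RPKM + 0.5) (y axis) of 4 marker lists in each homecage library, with library numbers beside the points. H3F-HC-121B is the lowest for dentate granule cells, OWT-HC-110A the lowest for interferon-stimulated genes, and choroid plexus genes are high in H3F-HC-105B, H3F-HC-112B and H3F-HC-124B.

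Choroid plexus genes, which mark the epithelium that secretes cerebrospinal fluid in the ventricle beside the hippocampus, were high in 3 of 8 H3F-HC libraries. Ttr, the thyroxine carrier made by this epithelium, was at 2260 RPKM in H3F-HC-105B, 3030 in H3F-HC-112B and 4037 in H3F-HC-124B. It was at 129.4 in H3F-HC-117B, at 0.316 to 22.3 in the other 4, and at 0.193 to 8.22 in the OWT-HC mice. All 17 markers had positive differences with a median of 1.40, and none was called. Enpp2 is a member of both this list and the myelin list. The mean of OWT-HC was under 0.5 RPKM for 11 of the 17, which entered the fit through H3F-HC and so had to differ. No member was at 0 throughout a group. The summed level was 53.7 to 81.0 RPKM in OWT-HC and 83.3 to 4922 in H3F-HC. A sum weighs abundant members most, and the mean log2 level of the list did overlap between the groups. It ran from 0.04 to 0.21 in OWT-HC and from -0.06 (H3F-HC-111B) to 4.40 (H3F-HC-124B) in H3F-HC. In the trained groups the median was -0.74. What these libraries contribute to the 18 calls was not tested beyond leaving out each in turn.

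Immune lists had positive medians that shrank or changed sign without 1 wildtype mouse. All 35 interferon-stimulated genes were positive with a median of 0.58, and none had an unadjusted p under 0.05. Without OWT-HC-110A the median was -0.14. The mean level of the list was 1.17 on the log2 scale in that mouse and 4.87 to 6.18 in the other OWT-HC mice. MHC class I genes went from a median of 0.31 to -0.23 and MHC class II genes from 0.70 to 0.12 without OWT-HC-110A. Homeostatic microglia genes had a median of 0.43, with 13 of 15 positive, and 0.21 without that mouse. Without it reactive astrocyte genes went from 0.55 to 0.11, lymphocyte genes from 0.60 to 0.08, complement genes from 0.55 to 0.03, genes of disease-associated microglia from 0.55 to 0.22, and chemokine, cytokine and NF-kappaB genes from 0.28 to -0.05. Leaving out H3F-HC-112B instead raised the medians of MHC class II genes to 1.05, complement genes to 0.76 and MHC class I genes to 0.59. No member of these lists was called.

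**Figure D5:**
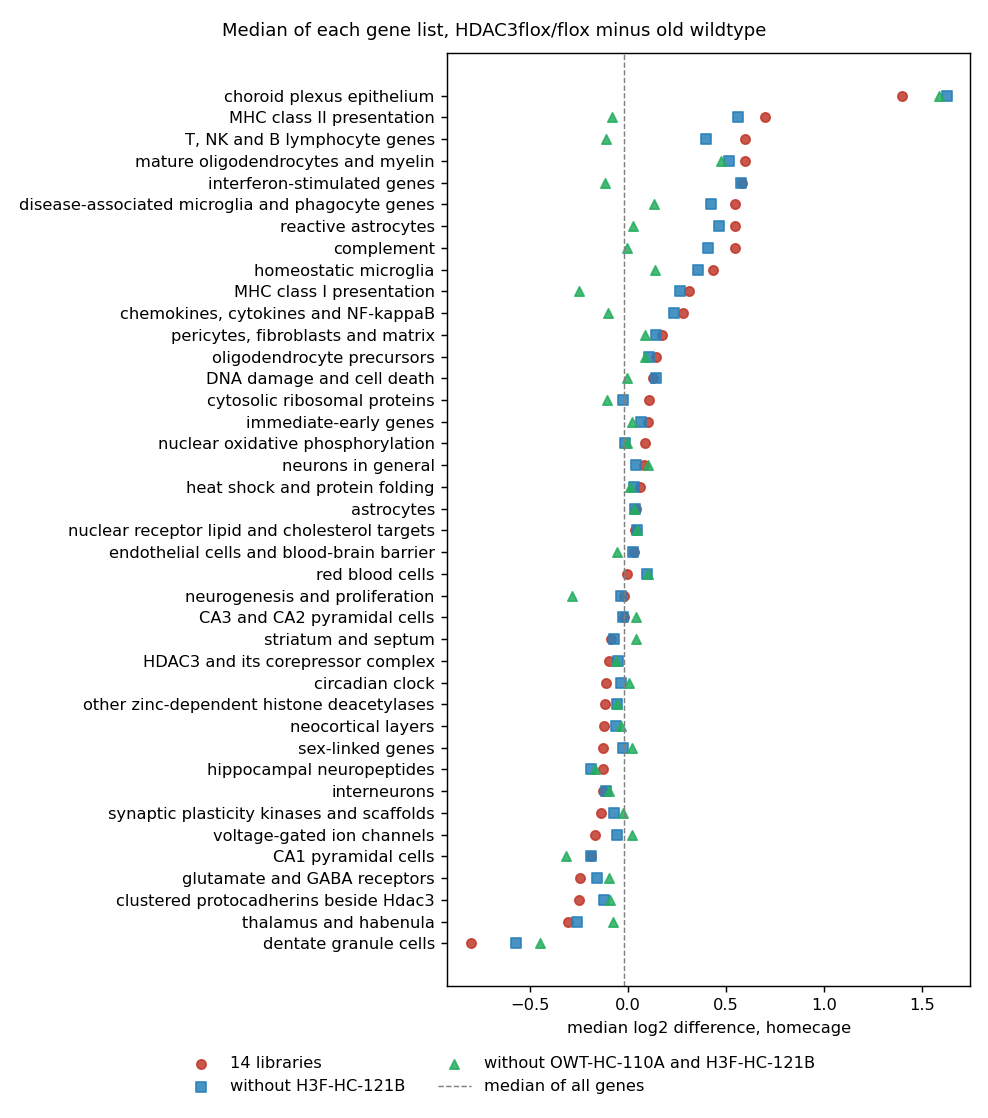
Median log2 difference (x axis) of each of the 40 gene lists in the homecage comparison, for all 14 libraries and without the libraries named in the legend. Most immune lists move to near or below 0 without OWT-HC-110A and H3F-HC-121B, and myelin and dentate granule cell lists keep their sign. The choroid plexus list stays positive too, but 11 of its 17 members entered the fit through H3F-HC, which largely fixed that sign beforehand.

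Neuronal excitability genes had mostly negative differences with all 14 libraries, and none was called. Of 36 glutamate and GABA receptor genes 34 were negative, with a median of -0.24, or -0.16 without H3F-HC-121B. Over all genes tested 54.7% were negative, or 56.8% without that library. Grin2d, the NMDA receptor subunit common in interneurons, ran from 2.05 to 3.57 RPKM in OWT-HC (median 2.37) and from 1.26 to 2.02 in H3F-HC (median 1.71). The groups did not overlap, and its log2 difference was -0.51 (standard error 0.12, adjusted p = 0.188 from limma). Of 42 voltage-gated channel genes 29 were negative, with a median of -0.17, or -0.06 without H3F-HC-121B. Cacna1g, a T-type calcium channel of burst-firing neurons, ran from 3.54 to 7.05 in OWT-HC (median 3.82) and from 1.63 to 3.03 in H3F-HC (median 2.45), also without overlap. It had a log2 difference of -0.83 (standard error 0.17, adjusted p = 0.160), and Cacna1h, its T-type relative, -0.74 (adjusted p = 0.248). Neurod2, a transcription factor of mature excitatory neurons, had -0.45 (adjusted p = 0.220), and Slc32a1, the vesicular transporter of GABA, 0.30 (adjusted p = 0.254). Both went against most members of their lists: the 16 general neuronal genes had a median of 0.08 with 11 positive. The 21 interneuron genes had a median of -0.13 with 17 negative.

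Metabolic and clock genes, on which the HDAC3 complex is known to act in liver, had no called member. Of the 28 lipid and cholesterol targets of nuclear receptors 15 were positive and 13 negative, with a median of 0.04, and none was called. Fasn, fatty acid synthase, had a log2 difference of -0.15 and Abcg1, a cholesterol exporter, 0.16. Of the 21 clock genes 16 were negative, beside 54.7% of all genes tested. Their median was -0.11, or -0.04 without H3F-HC-121B, and none was called. The 34 immediate-early genes, which neuronal activity switches on, had a median of 0.10 with 22 positive. Npas4, a factor induced by calcium entry, had 0.43 (unadjusted p = 0.0456, adjusted p = 0.399 from limma).

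Without H3F-HC-121B, where 3.5% of all genes were called lower and 0.384% higher, a few members of the lists joined the calls. Tdo2 and Npnt of the dentate granule cell markers were lower, at log2 differences of -0.87 and -0.69, as were the channel genes Cacna1g (-0.79), Cacna1h (-0.60), Scn3a (-0.50) and Cacna1b. Npnt encodes a matrix protein that binds integrins, Scn3a a sodium channel most abundant early in life, and Cacna1b the N-type calcium channel of nerve terminals. Grin2d stood at -0.51, Neurod2 at -0.45 and Cdh24, a cadherin of CA3, at -0.64, each at an adjusted p from 0.106 to 0.133 in limma. Pcdhb16 and the ribosomal protein gene Rpl12 were lower too. Slc32a1 at 0.25 and Tbl1xr1 at 0.20 were the members higher. Among genes of no list, chosen after their values were seen, Celsr3, a cadherin that guides axon tracts, stood at -0.49 (standard error 0.06, adjusted p = 0.00985), against -0.67 with a larger spread in all 14 libraries (adjusted p = 0.281). Mbnl2, a splicing regulator of neurons, stood at 0.26 (adjusted p = 0.0549) against 0.19 in all 14 (adjusted p = 0.434).

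No member of the remaining lists was called with all 14 libraries, and over all 40 lists the median of 12 changed sign when 1 library or another was left out. Endothelial and blood-brain barrier genes had a median of 0.03 with 12 of 22 positive, and astrocyte genes 0.04 with 9 of 16 positive. Sox9, a transcription factor of astrocytes, had a log2 difference of 0.39 (unadjusted p = 0.00659, adjusted p = 0.291 from limma). Interneuron genes had a median of -0.13, with Pvalb, a calcium buffer of fast-spiking cells, at 0.60 and Reln, which guides neuronal layering, at -0.39. Plasticity kinases and scaffolds of the synapse had a median of -0.14 with 29 of 33 negative, or -0.07 without H3F-HC-121B. Without OWT-HC-110A and H3F-HC-121B together it was -0.02. The genes of cytosolic ribosomal proteins had 0.11, or -0.03 without H3F-HC-121B, and nuclear oxidative phosphorylation genes 0.09, or -0.01 without it. Markers of neocortical layers stood at -0.12, of thalamus and habenula at -0.30 and of striatum and septum at -0.08. Those of thalamus and habenula moved to -0.12 without OWT-HC-110A and to -0.09 without OWT-HC-126A. Both wildtype mice were high in these markers, with mean log2 levels of 2.81 and 2.85 against 1.38 to 1.61 in the other OWT-HC mice. What this tissue contributes to the 18 calls was not tested beyond leaving out each library in turn.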

How the data were processed

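Dorsal hippocampal poly(A) RNA of 1 mouse per library was sequenced as single reads of 50 bases. Per the study's methods and the submitters' processing notes, the authors filtered reads with CASAVA 1.8.2, aligned them to mm10 with ELAND and Bowtie, and kept reads that both tools placed uniquely. The authors deposited RPKM values for 20953 genes, which were used as they stand. The deposited comparison columns of the authors (group means, SDs and Cyber-T p-values) were not used. Groups were taken from the labels. Nothing in the labels gives sex, and no numbers pair mice across groups.

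Differences were fitted on log2(RPKM + 0.5) with limma 3.58.1 (trend) in R 4.3.3, H3F-HC minus OWT-HC, and scripts were tested on simulated data. The pseudocount makes fold changes of low genes too small. A gene was called at p under 0.05 and an adjusted p under 0.15. Each trained or homecage pair was fitted alone. The test of their difference used the 28 libraries of old mice. Depth was estimated with a tolerance of 0.1 of a step in the 80 lowest values of the short RNA genes of each library, taking a step as the value of 1 sequenced base. It entered no test, and intervals from it were not drawn. No 2 libraries were identical.

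The genes named were the members of the HDAC3 complex, the called genes with the smallest p (12) or largest difference (8), the 10 with the smallest p where fewer than 5 were called, up to 4 per list by p, and the 10 measured neighbours of Hdac3 on each side. The members and the 40 lists were chosen with earlier results of these data known, and list counts support nothing on their own. Other settings tried were library weights, median-ratio or quantile scaling, a pseudocount of 0.1 or 1, a filter at a mean of 1 or none, a threshold of 0.05 on the adjusted p, fits with 28 or 40 libraries, robust empirical Bayes, Xist as a covariate and leaving out libraries. Python 3.11.15 (numpy 2.4.6, scipy 1.17.1, pandas 2.3.3, matplotlib 3.10.9) served for the rest. The values of a few list members are not reported here.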

Additional observations from a re-analysis of the deposited data

Results flagged for a closer look

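Among the groups of values examined (the called genes and the list levels in each homecage group), 16, or 13.8%, held a sample far from the others by Dixon's ratio, where chance gives about 1 in 20 groups. H3F-HC-121B accounted for 7. Its mean log2 level of the HDAC3 complex was 3.41 (3.85 to 3.99 in the other H3F-HC mice), of clustered protocadherins 0.63 (1.54 to 1.801), of clock genes 3.21 (3.54 to 3.79), of glutamate and GABA receptors 2.96 (3.57 to 4.05) and of voltage-gated channels 3.37 (3.93 to 4.31). In the same library cytosolic ribosomal proteins stood at 5.05 (3.94 to 4.39) and nuclear oxidative phosphorylation genes at 7.41 (6.54 to 6.76).

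OWT-HC-110A was far below the other wildtype mice in 3 lists: MHC class I genes at 3.02 (5.86 to 6.83), interferon-stimulated genes at 1.17 (4.87 to 6.18) and reactive astrocyte genes at 1.41 (3.31 to 4.27). H3F-HC-112B was low for MHC class II genes, at 2.32 (4.74 to 6.61), and high for red blood cell genes, at 2.28 (-0.51 to 0.68). H3F-HC-105B was low for CA1 pyramidal cell markers, at 1.84 (3.13 to 4.28), and high for thalamus and habenula markers, at 2.16 (1.39 to 1.74). OWT-HC-110A and OWT-HC-126A stood higher still for thalamus and habenula markers, at 2.81 and 2.85, though the ratio flagged neither. H3F-HC-101B was low for CA3 and CA2 markers, at 2.67 (3.29 to 3.76). Among the called genes, Pabpn1 in OWT-HC-129A stood apart at 60.4 RPKM (52.1 to 54.0 in the other wildtype mice).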

How the results depend on the processing

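The counts of called genes moved with most settings. Genes lower numbered 18 with the settings used, 183 with 28 libraries in the fit, 1311 with all 40, 1366 with library weights, 48 with Xist as a covariate, 28 with a minimum mean of 1, 30 with a pseudocount of 1, 11 with no filter, 4 at an adjusted p under 0.05, 100 without OWT-HC-110A and H3F-HC-121B together, and 1 after median-ratio scaling or quantile normalization. Genes higher numbered 0, and 13, 228, 262, 3, 2, 2 and 6 with 28 libraries, 40 libraries, weights, Xist, a minimum mean of 1, a pseudocount of 1 and without the pair of libraries. Leaving out 1 library gave 1 to 501 lower and 0 to 55 higher. Groups did not overlap in 0.873% (lower) and 0.0559% (higher) of genes, 0.426% and 0.251% after median-ratio scaling, and 0.915% to 2.15% and 0.0698% to 0.237% with 1 library left out. Hdac3 kept its call in every fit run, and none of the 18 called genes changed sign. Median-ratio scaling moved the median of all genes from -0.02 to 0.01. Over all settings and named genes, 218 calls of the 18 genes were lost and 170 calls of other genes gained. Depth limits low genes such as Scube1 most, and RPKM keeps no counts to give their counting error. No paired analysis was possible because the groups share no mouse numbers.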
